A study of Mus musculus with 2 samples.

Results

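Among the mesenchymal cells of the CCl4-injured mouse liver, 271 of 5291 cells carried messenger RNA of the cell division genes Mki67, Top2a and Cdk1 at or above the threshold that defines proliferating cells here. These 271 cells were taken from 8460 barcodes of the CCl4 library, and the series held 14757 barcodes in all. A cell entered the comparison with at least 2000 unique molecular identifiers (UMIs, each a counted RNA molecule) and at most 30% of them from mitochondrial genes, which left 6573 cells of the CCl4 library. The mesenchymal gate asked for at least 20 UMIs of Col1a1, Col3a1, Dcn and Bgn together and none of Ptprc, the pan-leukocyte gene for CD45. A member had at least 3 UMIs of Mki67, Top2a and Cdk1 together. The reference cells were 271 cells of the same gate with 0 UMIs of those 3 genes, paired 1 to 1 with the members on total UMIs and called matched cells. Both sets were thus chosen by measured UMIs of the same cells that are described below, so all their differences are descriptions and no test was made.

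The study sequenced the RNA of single liver cells in droplets (10x Genomics), with 1 library for healthy mice and 1 for mice given CCl4. Both libraries came from Col1a2CreER:Rosa26tdTomato mice on a C57BL/6 background, in which tamoxifen-induced Cre under the Col1a2 promoter turns on a red reporter in collagen-producing cells. The injured mice received repeated intraperitoneal CCl4, a hepatotoxin that kills central hepatocytes and brings on fibrosis, and the healthy mice were uninjured. Livers were digested with pronase and collagenase, cells were enriched on a Nycodenz density gradient, and the methods describe removal of most CD45-positive cells with beads. The number of mice behind each library is not given in the sources used here. The paper states that its injury models used male and female mice, but the sex is not given per library. With 1 library per group, library and condition cannot be told apart, and the intervals printed here, all at 95%, cover counting error only.

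A dividing cell copies its DNA in S phase and separates the copies in mitosis, after the G2 gap. The genes for the 2 steps are switched on in turn: E2F factors drive the genes for DNA replication and nucleotide supply, and later the DREAM complex, B-Myb and FoxM1, working with NF-Y, govern the mitotic kinases, cyclins and spindle proteins. In the injured liver, hepatic stellate cells, portal fibroblasts and mesothelial cells are the mesenchymal populations that can divide, and expansion of matrix-producing cells is a known part of fibrosis.

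The promoters of the 3 genes that chose the members are shown because the same letters recur in the genes that separate the members below. Windows run from 250 bases before to 50 bases after the RefSeq transcription start in build GRCm38.p6, 5′ to 3′ on the gene's strand. They lie at chr7:135716330-135716629 (minus strand) for Mki67, which encodes the nuclear protein Ki-67, at chr11:99024140-99024439 (minus) for Top2a, the DNA topoisomerase that untangles chromosomes, and at chr10:69352863-69353162 (minus) for Cdk1, the kinase of mitotic entry. Ccnb1, the cyclin partner of Cdk1, follows at chr13:100786437-100786736 (minus). Capitals mark the CHR letters, TTTGAA or TTTAAA, which are bound by DREAM and its partners, and the NF-Y letters CCAAT, each on either strand.
Mki67: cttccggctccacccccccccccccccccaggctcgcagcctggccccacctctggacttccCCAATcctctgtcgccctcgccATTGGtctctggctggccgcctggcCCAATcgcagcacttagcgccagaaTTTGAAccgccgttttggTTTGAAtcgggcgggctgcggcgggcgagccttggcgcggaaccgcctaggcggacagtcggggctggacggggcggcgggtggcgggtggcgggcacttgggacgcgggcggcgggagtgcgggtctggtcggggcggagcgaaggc
Top2a: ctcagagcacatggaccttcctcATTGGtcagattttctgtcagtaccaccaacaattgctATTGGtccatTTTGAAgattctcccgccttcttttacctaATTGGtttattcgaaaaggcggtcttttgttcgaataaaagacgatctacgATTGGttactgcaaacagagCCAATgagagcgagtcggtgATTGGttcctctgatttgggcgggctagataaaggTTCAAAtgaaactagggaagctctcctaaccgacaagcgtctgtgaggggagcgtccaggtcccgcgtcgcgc
Cdk1: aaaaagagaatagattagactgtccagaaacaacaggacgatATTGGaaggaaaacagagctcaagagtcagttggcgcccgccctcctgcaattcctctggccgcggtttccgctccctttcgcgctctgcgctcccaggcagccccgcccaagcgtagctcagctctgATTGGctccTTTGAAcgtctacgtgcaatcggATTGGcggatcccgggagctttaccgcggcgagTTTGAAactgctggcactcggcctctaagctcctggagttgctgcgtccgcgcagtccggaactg
Ccnb1: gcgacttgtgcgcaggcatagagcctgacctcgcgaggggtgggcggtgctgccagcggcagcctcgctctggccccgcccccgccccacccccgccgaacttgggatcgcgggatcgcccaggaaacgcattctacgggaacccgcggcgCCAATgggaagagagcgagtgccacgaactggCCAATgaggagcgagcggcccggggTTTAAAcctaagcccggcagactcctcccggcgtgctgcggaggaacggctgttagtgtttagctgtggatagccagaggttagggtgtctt

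All 4 windows held both kinds of letters, and those of Mki67, Cdk1 and Ccnb1 also held an E2F core, which is not capitalised. In Cdk1 the CHR letters TTTGAA began at bases 180 and 236 of the window, and in Ccnb1 the letters TTTAAA, which are their own reverse complement, began at base 209. A match in these letters is a description of the window, not a binding site measured here. The windows of Mcm5 at chr8:75109259-75109558 (plus strand) and of Mcm6 at chr1:128359656-128359955 (minus), 2 subunits of the replicative helicase, are given as S phase genes. Here capitals mark the E2F cores TTCCCGC and TTGGCGC and also TTCGCGC and TTGCCGC on either strand, and TTGGCGC and TTCGCGC read on opposite strands overlap in runs such as those below. The window of Mcm5 also held TTTAAA at base 30 and NF-Y letters at 3 places, and that of Mcm6 NF-Y letters at 2 places, not capitalised here.
Mcm5: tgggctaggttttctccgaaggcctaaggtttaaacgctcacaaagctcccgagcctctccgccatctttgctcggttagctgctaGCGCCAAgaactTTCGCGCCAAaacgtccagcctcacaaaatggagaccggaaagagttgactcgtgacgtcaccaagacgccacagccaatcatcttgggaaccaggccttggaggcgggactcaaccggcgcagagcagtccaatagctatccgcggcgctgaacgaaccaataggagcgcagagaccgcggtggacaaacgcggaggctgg
Mcm6: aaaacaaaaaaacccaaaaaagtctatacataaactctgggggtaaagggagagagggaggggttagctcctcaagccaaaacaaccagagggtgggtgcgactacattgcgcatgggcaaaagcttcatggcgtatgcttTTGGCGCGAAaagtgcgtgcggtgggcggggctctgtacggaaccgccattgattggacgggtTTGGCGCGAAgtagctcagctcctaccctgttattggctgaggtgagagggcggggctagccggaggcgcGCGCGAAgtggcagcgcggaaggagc

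Across lists of genes the letters divided along the cycle. Promoters matched by symbol for 43 of 53 genes of the mitotic lists (mitotic kinases and cyclins, kinetochore and anaphase), and 27 of them (62.8%) held CHR letters, against 27.8% of the first windows of all 27025 genes. CHR and NF-Y letters stood together in 23 of the 43 (53.5%), against 10.9% of all genes. For the S phase lists (DNA replication and nucleotide supply), 46 of 56 genes matched, of which 27 (58.7%) held an E2F core, against 9.69% of all genes. CHR letters were in 10 of those 46 (21.7%) and E2F cores in 6 of the 43 mitotic promoters (14.0%). NF-Y letters were common in both, in 31 of 46 (67.4%) and 33 of 43 (76.7%), against 37.9% of all genes. Among the 25 of 29 spindle genes that matched, 19 (76%) held CHR letters, and among the 10 of 12 immediate-early genes, 1 did (10%). The NF-Y letters can overlap an E2F core read on the other strand, which ends in CCAA.

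The gate genes stood as the rule set them. Mki67 had a UMI in 224 members (82.7%), with a median of 5 and at most 67 UMIs in a cell. Top2a had one in 194 members (71.6%), with a median of 2 and at most 71. Cdk1 had one in 222 members (81.9%), with a median of 2 and at most 48. All 3 genes were seen in 142 members, 2 of them in 85 and 1 in 44. Of the remaining cells of the mesenchymal gate, 3741 had 0 UMIs of the 3 genes, 1037 had 1 and 242 had 2, so the sets are the ends of a count and not separate populations.

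**Figure D1:**
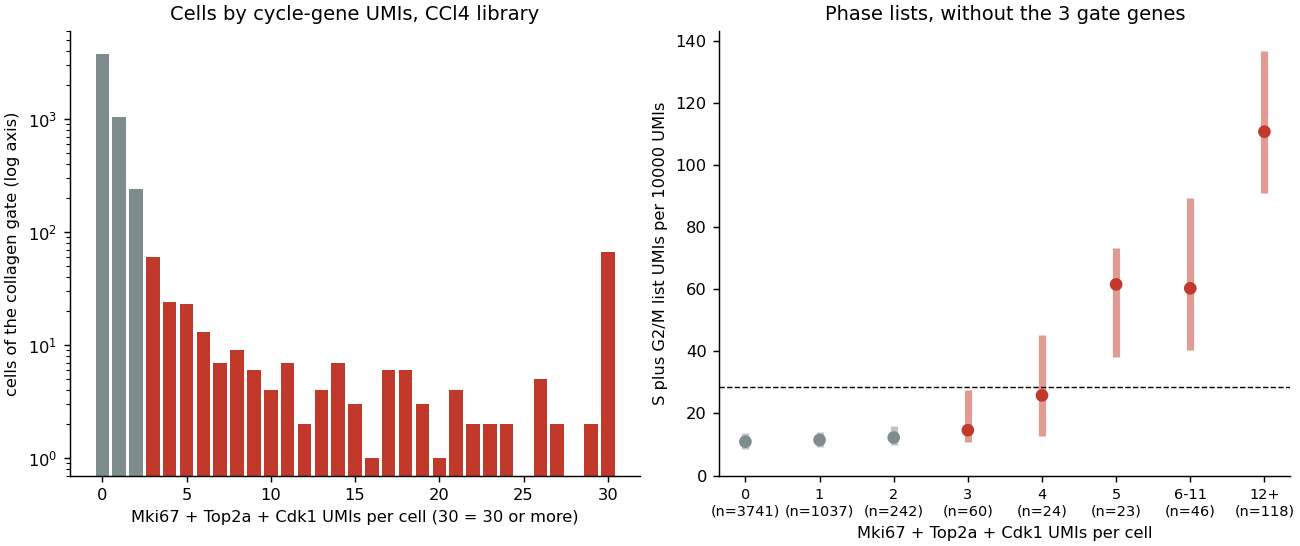
Left, number of cells of the mesenchymal gate (log axis) by UMIs of Mki67, Top2a and Cdk1, with members in red and 30 standing for 30 or more; right, the median (point) and middle 50% (bar) of other cell cycle genes in UMIs per 10000 for each range, with the matched 99th percentile dashed. The 118 members with at least 12 gate UMIs had a median of 111 UMIs per 10000 and the 60 with 3 had 14.6, near the 10.9 of cells with 0.

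Cells just inside the threshold were close to cells just outside it. The level of 5 cell cycle lists (S phase and mitotic, without the gate genes) had a median of 12.2 UMIs per 10000 in the 242 cells with 2 gate UMIs and of 14.6 in the 60 members with 3. It was 25.8 in the 24 members with 4, 61.6 in the 23 with 5, 60.3 in the 46 with 6 to 11 and 111 in the 118 with 12 or more. The members as a whole had a median of 65.9 against 11.6 in the matched cells, in which the 99th percentile was 28.5 and the highest cell 42.3. Of the members, 205 (75.6%) lay above that percentile, and they included 15 of the 60 members with 3 gate UMIs and 118 of the 118 with 12 or more. On the side of the collagen threshold, 2 members had 20 to 29 collagen UMIs, and 8 cells with 10 to 19 collagen UMIs and no Ptprc passed the cycle threshold but not the mesenchymal one.

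Genes that the gate did not use were looked up beside cells of the same library that fell under the collagen threshold, 838 without Ptprc at a median of 6168 UMIs and 38 with at least 15000 UMIs, a depth chosen after seeing the data. Pdgfra, the PDGF receptor alpha, had a UMI in 92.6% of the members, in 11.3% of the 838 cells and in 4 of the 38, and stood at 243, 30.5 and 8.02 CPM. Pdgfrb, the PDGF receptor beta, had one in 79% of the members, 6.68% of the 838 and 2 of the 38, and Lum, the collagen-binding lumican, in 83.4%, 22.6% and 12 of the 38. In the members these mesenchymal genes thus lay well above the cells under the collagen threshold. The matched cells of the same gate held them too. Pdgfra had a UMI in 91.9% of the matched cells (288 CPM), Pdgfrb in 65.3% and Lum in 73.1%. The genes therefore describe the gate and not the members alone. Sparc and Vim, common to many cell types, had a UMI in 100% and 99.3% of the members but also in 97.4% and 94.7% of the 38 deep cells. The collagen gate sum of the members ran from 22 to 1265 UMIs with a median of 359, against 20 to 1560 with a median of 331 in the matched cells. Within the gate, Col1a1 stood at 3034 UMIs per 1000000 (CPM) in the members and 2484 in the matched cells, and Col3a1 at 5520 and 4453. Dcn stood at 5803 and 6853 CPM, and Bgn at 1814 and 1834. Summed, the 4 genes stood at 16172 and 15625 CPM over all pairs, at 19918 and 22061 in unmarked pairs and at 9933 and 9837 in mesothelial-marked pairs. These genes chose both sets, so their levels are a description only.

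Members had more UMIs than the gate as a whole, which is why the reference was matched. They had a median of 23746 UMIs (2965 to 101469) and 5067 genes, the 3741 cells with 0 gate UMIs a median of 14379 UMIs, and the matched cells 23750 UMIs and 4969 genes. Mitochondrial genes took a median of 3.95% of UMIs in the members and 4.02% in the matched cells. Matching for depth also changed the mixture of cells. At least 3 UMIs of the mesothelial genes Msln, Upk3b, Upk1b and Lrrn4 were found in 70 members (25.8%, interval 20.7 to 31.5%) and in 122 matched cells (45%, 39.0 to 51.2%), against 24.8% of the gate. The cells above that mark are called mesothelial-marked and the others unmarked, and a separate matching within each kind gave 70 and 201 pairs.

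Cells that passed the cycle threshold made up 5.12% (4.54 to 5.75%) of the mesenchymal gate, and 205 of the 271 also lay above the matched 99th percentile of the other cycle genes. The share was 5.34% (70 of 1311) among mesothelial-marked cells and 5.05% (201 of 3980) among unmarked cells. It was higher at greater depth, from 1.63% (7 of 429) under 5000 UMIs to 3.1% (94 of 3033) between 10000 and 20000 and to 29.2% (31 of 106) from 40000 UMIs on. With every cell thinned to 2000 UMIs the share was 1.34% for the gate, and 0.931%, 0.432% and 11% for those depth ranges, so the deepest cells kept the highest share and the lower ranges had no steady order. In the other cells of the CCl4 library the same threshold was passed by 36 of 838 cells with under 20 collagen UMIs and no Ptprc (4.30%, thinned 1.61%) and by 17 of 444 Ptprc-positive cells (3.83%, thinned 1.37%). Their median depths were 6168 and 5762.5 UMIs against 15169 in the gate. At equal depth the mesenchymal gate therefore did not stand above the rest of its library.

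The healthy library held 302 cells of the mesenchymal gate and 0 members among them, which allows a share of up to 0.993% at a limit of 3 cells (exact upper bound 1.21%). Of those 302 cells, 244 (80.8%) were mesothelial-marked, so the 2 gates hold different mixtures. Over the 58 unmarked healthy cells the count of 0 allows up to 5.17% (exact upper bound 6.16%), beside 5.05% in the CCl4 library, so with so few cells a difference was not detectable. Among mesothelial-marked cells, 0 of 244 healthy cells passed, which allows up to 1.23% (exact upper bound 1.5%), against 5.34% (4.19 to 6.70%) in the CCl4 library at median depths of 18624 and 19543 UMIs. With 1 library each this sets 2 libraries side by side.

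Between members and matched cells, 11069 genes had at least 50 UMIs over both sets, the gate genes apart. Of these, 582 were at least 2-fold higher in the members (5.26% of genes) and 374 at least 2-fold lower (3.38%), and the median log2 ratio of all genes was 0.01. In unmarked cells 477 of 9998 genes were higher (4.77%) and 130 lower (1.3%). In mesothelial-marked cells 461 of 8382 were higher (5.5%) and 231 lower (2.76%). The share of higher genes was 4.77% and 5.5% in the 2 kinds of cell, and that of lower genes 1.3% in unmarked and 2.76% in marked cells. Counts of higher and lower genes in the lists below are to be read beside these shares.

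Genes of the mitotic machinery had some of the highest ratios. All 19 counted genes of mitotic kinases and cyclins were at least 2-fold higher in the members, with a median log2 ratio of 5.37 (5.47 in unmarked and 4.54 in marked cells). Ccnb1, the cyclin B1 that activates Cdk1, was counted 654 times in the members and 3 times in the matched cells, a ratio of 213 (72.5 to 1034). Ccna2, cyclin A2 of S phase and G2, was counted 606 and 3 times (197, 67.1 to 959). Aurkb, the Aurora kinase that corrects spindle attachment, was counted 364 times in the members and not in the matched cells, at least 118-fold higher against a floor of 3 UMIs over the set. Plk1, the Polo-like kinase of mitotic entry, had 414 UMIs and 1 UMI (404, 72.1 to 15998). Wee1, which holds Cdk1 back, was the lowest of the list and still 2.69-fold higher.

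The proteins that read and pull the chromosomes followed. All 20 counted kinetochore genes were at least 2-fold higher, with a median log2 ratio of 4.77. Cenpf, a kinetochore protein of late G2, was seen in 67.9% of the members and 2.58% of the matched cells, at 364 and 1.21 CPM. Cenpa, the histone H3 variant of centromeres, stood at 206 and 5.29 CPM, a ratio of 38.9 (27.8 to 56.1). All 14 anaphase genes were higher, with a median of 5.16. Ube2c, the ubiquitin-conjugating enzyme of the anaphase-promoting complex, had 2113 and 9 UMIs, Cdc20, its activator, 962 and 8, and Birc5, the survivin subunit of the chromosomal passenger complex, 1479 and 10.

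Spindle and cytokinesis genes had the highest median of the lists, 6.26 on the log2 scale, with 28 of 29 at least 2-fold higher. Hmmr, a spindle-pole protein, had 1272 and 4 UMIs, and Tpx2, which activates Aurora A on the spindle, 1190 and 4. Prc1, the crosslinker of the midzone microtubules, stood at 300 and 3.18 CPM (94.4, 61.6 to 153). Stmn1, which takes microtubules apart, was common in both sets, at 687 and 56.3 CPM (12.2, 11 to 13.6). The exception was Numa1, the spindle-pole anchor that also sits in the nucleus between divisions, at 65.1 and 66.6 CPM (0.978, 0.855 to 1.12). Chromosome packing and repair genes lay lower than the spindle: 9 of 11 condensin and cohesin genes were higher (median 3.30) and 11 of 12 DNA repair genes (median 4.45). Smc2, a condensin ATPase, had a ratio of 12.3 (10.1 to 15.2), while Smc3, a cohesin subunit needed all the time, had 1.48 (1.34 to 1.64).

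**Figure D2:**
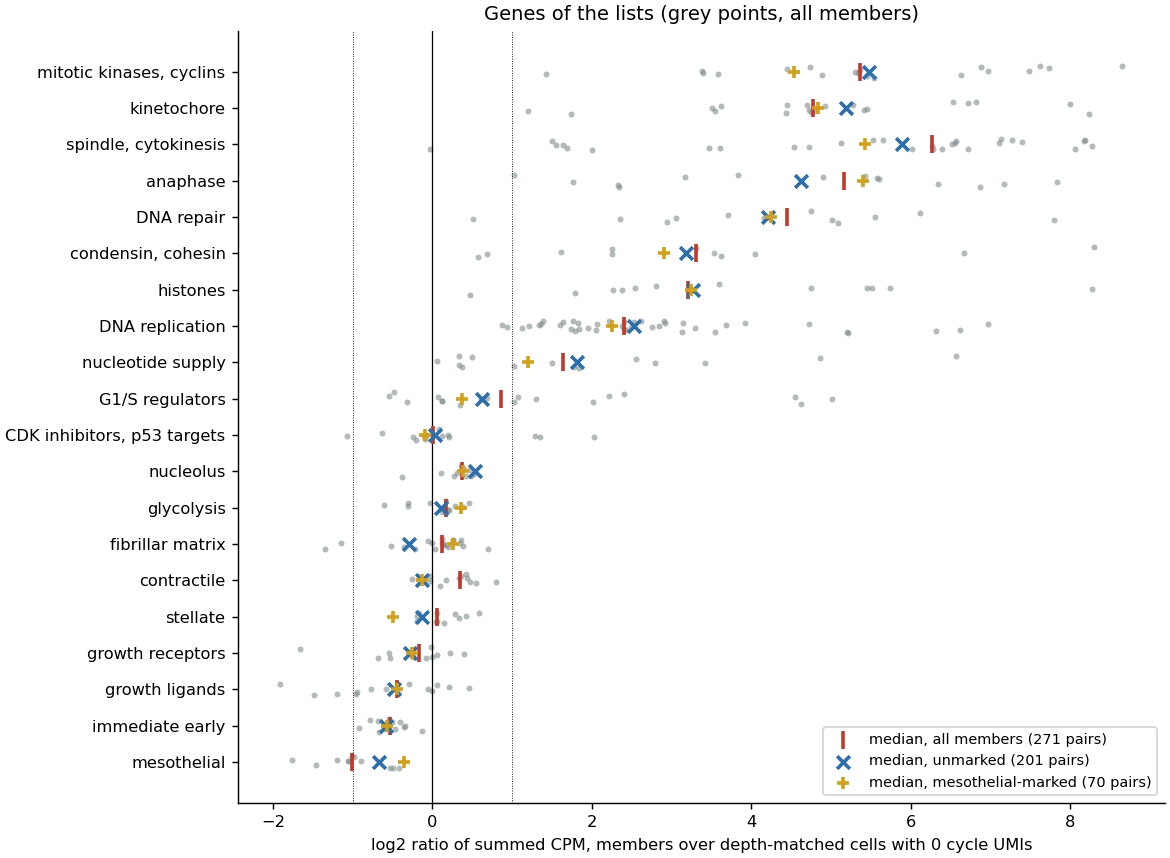
Log2 ratio of CPM, members over matched cells, for each gene of each list (grey points, all pairs) with the list's median over all, unmarked and mesothelial-marked pairs, and dotted lines at 2-fold. For all pairs the mitotic, spindle, repair, condensin, histone, replication and nucleotide lists lie between 1.64 and 6.26. The G1/S regulators are at 0.86 and the CDK inhibitors and p53 targets at 0.007. The fibrillar matrix list is at 0.12 over all pairs, −0.29 in unmarked and 0.26 in marked pairs.

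Of 42 DNA replication genes 41 were counted, and 39 were at least 2-fold higher, with a median log2 ratio of 2.41, below those of the mitotic lists. Pcna, the sliding clamp of the polymerases, stood at 164 and 35.2 CPM (4.66, 4.04 to 5.39), and was present in 51.3% of the matched cells. The helicase subunits Mcm5 and Mcm6, whose promoters are printed above, stood at 61.9 and 5.29 CPM (11.7, 8.27 to 17) and at 80.2 and 19.4 CPM (4.14, 3.41 to 5.06). Cdc45, which joins the helicase when origins fire, had 129 UMIs and 1 UMI. Rfc1, part of the clamp loader, and Orc6, of the origin recognition complex, were the 2 under 2-fold, at 1.83 (1.62 to 2.07) and 1.91 (1.58 to 2.32).

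Of the 14 genes of nucleotide supply 9 were at least 2-fold higher, with a median of 1.64 (1.81 in unmarked and 1.2 in marked cells). Rrm2, the small subunit of ribonucleotide reductase, had 293 and 3 UMIs, and Tk1, thymidine kinase, 717 and 24 (29.2, 19.4 to 45.8). Tyms, thymidylate synthase, had a ratio of 6.95 (5.81 to 8.37). Paics, of purine synthesis, stood at 94.8 and 91.4 CPM (1.04, 0.927 to 1.16). The list thus ran from equal levels, for Paics, to a near absence in the matched cells, for Rrm2. Of 12 histone genes 11 were higher (median 3.20). Hist1h2ap, a replication-dependent H2A gene, stood at 541 and 11.8 CPM (45.8, 36.6 to 58.1), and Hist1h1b, a linker histone, at 210 and 3.93 CPM. Replication-dependent histone messages lack a poly(A) tail for the most part, so poly(A) capture counts only a part of them, and copies of these genes are close in sequence.

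The regulators of the step from G1 to S were split. Of 18 genes 9 were at least 2-fold higher and none at least 2-fold lower, with a median of 0.86 (0.62 in unmarked, 0.37 in marked cells). E2f8, a repressor that E2F factors switch on in S phase, had 99 UMIs in the members and 0 in the matched cells, a ratio of 32.2 against the floor of 3 UMIs. Ccne2, cyclin E2, had 120 and 5 UMIs (23.4, 9.76 to 73.5). Ccnd1, cyclin D1, stood at 97.2 and 46.1 CPM, a ratio of 2.11 in all, 1.48 in unmarked and 3.40 in marked cells. Ccnd2, cyclin D2, stood at 128 and 188 CPM, with 0.683 (0.625 to 0.745) in all and 0.627 in unmarked cells. Myc stood at 23.9 and 33.4 CPM (0.715, 0.581 to 0.880) and Cdk6 at 69.0 and 85.8 CPM. The mitogen-responsive genes of G1 were therefore not uniformly higher in members than in cells without gate UMIs.

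Brakes of the cycle were not lower as a group. Of 14 CDK inhibitor and p53 target genes 3 were at least 2-fold higher and 1 at least 2-fold lower, and the median was 0.01. Cdkn2d, the CDK4 and CDK6 inhibitor p19, was higher, at 69.1 and 16.9 CPM (4.08, 3.31 to 5.06, and 3.68 in unmarked cells). Cdkn2c, the inhibitor p18, stood at 70.7 and 29 CPM (2.43, 2.06 to 2.89). Cdkn2a, which encodes p16 and p19Arf, had 2.56 (1.88 to 3.52) over all pairs, but 1.45 in unmarked and 1.56 in marked cells. Cdkn1a, the p53 target p21, stood at 70.7 and 76.1 CPM (0.929, 0.818 to 1.06), though it was seen in 39.5% of members and 26.6% of matched cells. Btg2, an antiproliferative p53 target, was the lower gene, at 315 and 661 CPM (0.477, 0.453 to 0.503), with 0.669 in unmarked and 0.443 in marked cells.

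Outside the lists, the 15 highest genes with at least 200 UMIs had ratios from 17.4 to 381. Pclaf, the PCNA-associated factor, had 1571 UMIs in the members and 5 in the matched cells (307, 131 to 946), and was seen in 68.6% and 1.48% of cells. Pimreg, a mitotic regulator that binds the clathrin adaptor PICALM, had 390 UMIs and 1 UMI, and Pbk, a mitotic kinase, 282 and 2. Diaph3, a formin that shapes actin, stood at 82.1 and 2.57 CPM (31.9, 19.8 to 55.2). Mxd3, a partner of Max, had 353 and 5 UMIs. Lockd, a long non-coding RNA that lies downstream of Cdkn1b, stood at 89.6 and 4.84 CPM (18.5, 13.0 to 27.3). Depdc1a, Shcbp1, Spdl1, Cdca2, Arhgap11a, Knstrn, Cip2a, Slfn9 and Cenpq made up the 15. Among unmarked pairs Lmnb1, the nuclear lamin B1, had 21.1 (14.2 to 32.5), Hells, a chromatin remodeller of S phase, 13.9, and Hmgb2, a DNA-bending protein, 10.8 (9.52 to 12.3) at 691 and 64.1 CPM.

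The members did not occupy 1 position in the cycle. For each cell the S phase list UMIs were taken as a share of S phase and mitotic list UMIs, without the gate genes. The share ran from 0 to 0.883 in the members with a median of 0.400, and had a median of 0.688 in the matched cells, which held few UMIs of either. By this share 122 members (45%, 39.0 to 51.2%) lay under 1/3, with mostly mitotic genes, 82 (30.3%) between 1/3 and 2/3, and 67 (24.7%) above 2/3, with mostly S phase genes. These are ranges of a continuous share and not types, and 65 members lay within 0.05 of a cut. The split also depends on the gate, since Mki67 stood at 522 CPM in members under 1/3 and at 64.5 over 2/3. A higher gate threshold gave a larger part under 1/3, as listed at the end. The shares describe cells chosen by this rule and not the phases of all dividing cells. Of the matched cells, 3 (1.11%) lay under 1/3, 117 (43.2%) between the cuts and 151 (55.7%) above 2/3. A share above 2/3 alone therefore does not mark a cell in S phase. The names mitotic range and S phase range below stand for the share only.

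**Figure D3:**
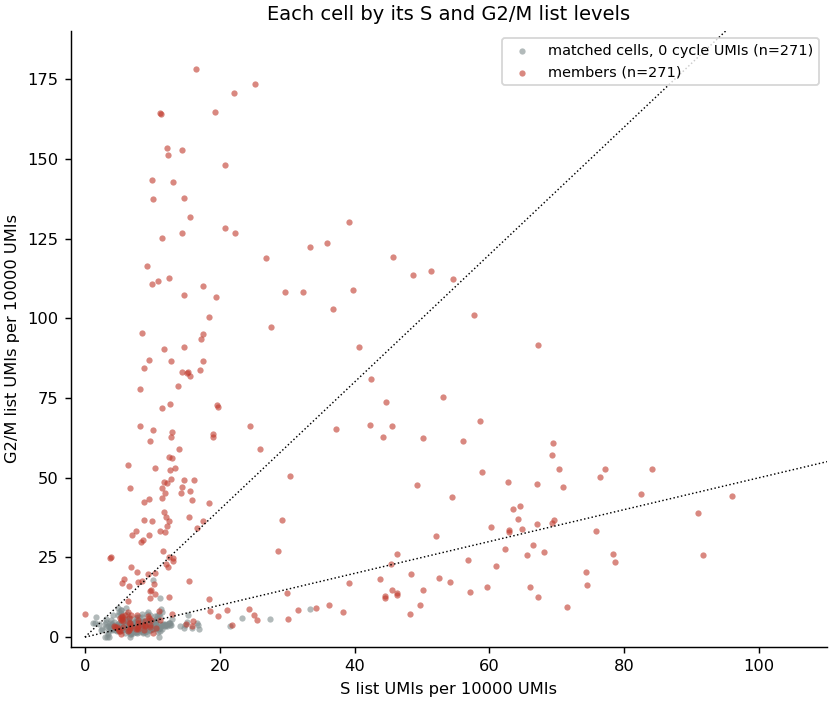
Each member (red) and matched cell (grey) by UMIs per 10000 of the S phase lists (x) and of the mitotic lists (y), on linear axes, with dotted lines at S shares of 1/3 and 2/3. Members spread in an arc away from the matched cells, whose highest total was 42.3, and the 122 members under 1/3 reach the highest mitotic levels.

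The ranges differed in how strongly they stood out. Members under 1/3 had a median of 85.3 phase UMIs per 10000 and 14 gate UMIs, and 115 of the 122 lay above the matched 99th percentile. Members between the cuts had 46.8 and 6.5, with 48 of 82 above it, and members over 2/3 had 46.1 and 4, with 42 of 67 above it. Median depth was 19227.5, 25987 and 26752 UMIs in that order. Mki67 itself stood at 522, 288 and 64.5 CPM, so members of the S phase range passed the rule with fewer gate UMIs than those of the mitotic range.

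Within the ranges the genes were ordered as the share was built, which is a description. Cenpf stood at 770, 130 and 19.3 CPM from the mitotic to the S phase range, against 1.21 in the matched cells, Cdc20 at 313, 34.7 and 6.79, and Ccnb1 at 208, 31.1 and 2.83. In the other direction Mcm6 stood at 18.3, 101 and 151 CPM, against 19.4 in the matched cells, and Mcm5 at 23.7, 75.7 and 105. In the mitotic range Mcm6 was thus at the matched level while Mcm5 at 23.7 CPM stayed above its matched level of 5.29. Pcna stood at 57.4, 222 and 260 CPM against 35.2.

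Genes that were not part of the share filled in the order. Hist1h2ap was highest between the cuts, at 1205 CPM, against 286 in the mitotic and 107 in the S phase range. Summed over the histone list, the levels were 3696, 4809 and 1298 CPM against 599 in the matched cells. Ccne2 was highest in the S phase range, at 1.44, 19.8 and 40.8 CPM against 0.756. Hmgb2 was highest in the mitotic range, at 1011, 640 and 293 CPM against 68.8, and Pclaf between the cuts, at 170, 343 and 191 CPM against 0.756. Ccne2 was thus highest where the replication genes were, the histones in the middle range, and Hmgb2 where the mitotic genes were.

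**Figure D4:**
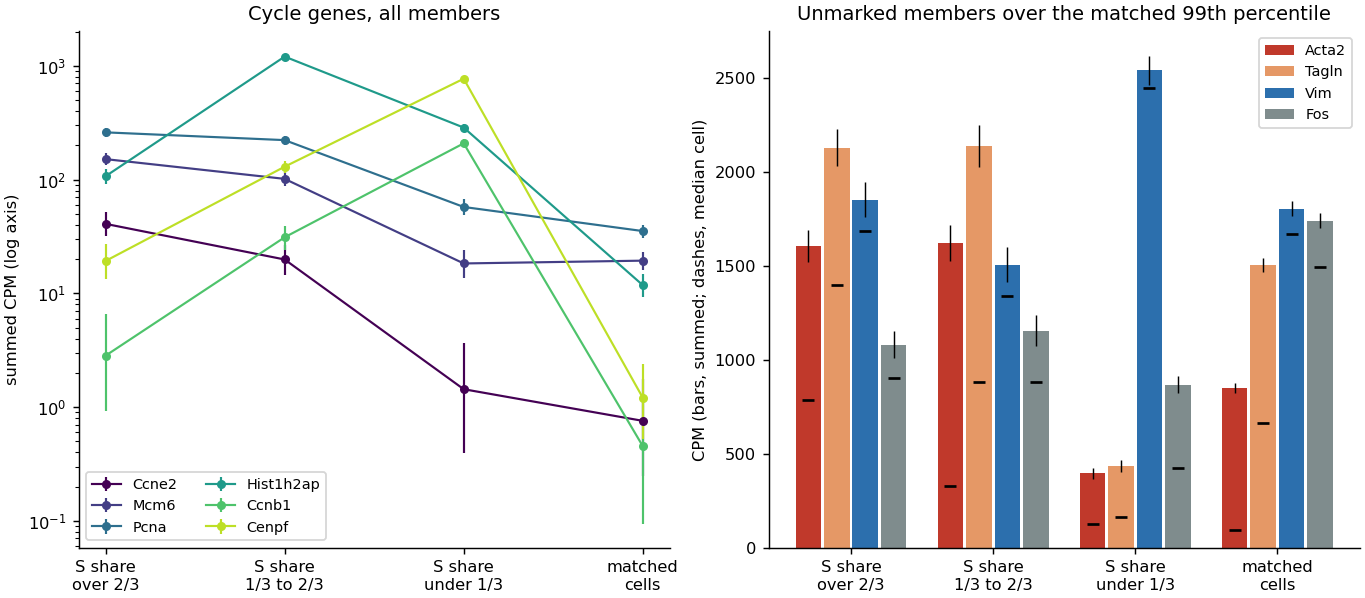
CPM with exact Poisson intervals by range of S share and in the matched cells, for cycle genes in all members (left, log axis) and for Acta2, Tagln, Vim and Fos in unmarked members above the matched 99th percentile (right, bars summed CPM, dashes the median cell). Cenpf is at 770 CPM in the mitotic and 19.3 in the S phase range and Mcm6 at 18.3 and 151 CPM, and Hist1h2ap is highest between them at 1205 CPM.

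Among unmarked members above the matched 99th percentile, which numbered 86, 30 and 32 in the 3 ranges, several genes outside the lists of the cycle also differed between ranges. Acta2, the alpha smooth muscle actin of myofibroblasts, stood at 394 CPM in the mitotic range, 1619 between the cuts and 1603 in the S phase range, against 848 in the 201 matched cells. Its median over single cells was 127, 326 and 784 CPM, against 93.9. Tagln, an actin-binding protein of the same programme, stood at 434, 2135 and 2129 CPM against 1506. Vim went the other way, at 2541, 1505 and 1849 CPM against 1803. Summed contractile genes stood at 6227, 8844 and 9495 CPM against 7841, with medians over single cells of 5697, 6039 and 8311 against 5933. In the 29, 18 and 10 marked members above the percentile the order was the opposite, at 6152, 4149 and 3851 CPM against 4230. The fibrillar matrix genes of the unmarked members were at 14585, 14697 and 15089 CPM against 17323. Median depth of these unmarked members was 17685.5, 25255 and 27527.5 UMIs, against 19036. Over all unmarked members of the ranges (93, 57 and 51), endothelial genes stood at 455, 677 and 1314 CPM. Smooth muscle genes stood at 344, 421 and 566 CPM, while hepatocyte genes were highest between the cuts (65.5, 170 and 83.2). The ranges thus also differed in depth and in cell type markers. The part of these in the Acta2 and Tagln levels was not tested.

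Inhibitors and cyclins of G1 varied among the same unmarked members. Ccnd1 stood at 39.7, 120 and 174 CPM from the mitotic to the S phase range, against 67.0 in the matched cells, and Ccnd2 at 91.2, 132 and 251 against 255. Cdkn1b, the inhibitor p27, was highest in the mitotic range, at 112 CPM against 54.8 and 46.0 in the others and 62.0 in the matched cells. Cdkn2c was at 117, 79.2 and 24.2 CPM against 34.8, and Cdkn2d at 95.9, 129 and 31.5 against 18.7. For Ccnd2 the mitotic range and the middle range lay below the matched cells, and the S phase range was at the matched level.

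Matrix genes differed little as a list, and their direction turned with the kind of cell. Of 20 fibrillar matrix genes none was at least 2-fold higher and 2 were at least 2-fold lower, and the median log2 ratio was 0.12 over all pairs, −0.29 in unmarked and 0.26 in marked pairs. Fn1, fibronectin, had 1.10 over all pairs, 0.681 (0.655 to 0.708) in unmarked and 1.61 (1.55 to 1.68) in marked cells. Col1a2 had 0.998, 0.808 and 1.28, and Sparc 1.08, 0.911 and 1.16. The 2 lower genes were Thbs1, the matricellular thrombospondin 1, at 121 and 267 CPM (0.452, 0.416 to 0.491, with 0.504 in unmarked and 0.341 in marked cells), and Fmod, the collagen-binding fibromodulin (0.393, 0.339 to 0.455), which stood at 0.749 in unmarked cells. Postn, the matricellular periostin, had 1.62 over all pairs and 1.10 in unmarked cells.

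The markers of mesenchymal subtypes gave the same caution. The contractile list had a median of 0.35 over all pairs but −0.13 in unmarked and −0.13 in marked pairs, beside 25.8% of members and 45% of matched cells that were mesothelial-marked over all pairs. Acta2 stood at 649 and 373 CPM over all pairs (1.74, 1.66 to 1.83), 1.08 in unmarked and 1.22 in marked cells, and Tagln at 1.26, 0.832 and 0.541. The stellate list had a median of 0.05, −0.13 in unmarked and −0.49 in marked pairs. Lrat, the retinol-esterifying enzyme of stellate cells, had 0.878 over all pairs and 0.680 (0.615 to 0.750) in unmarked cells, and Colec11, a collectin of stellate cells, 0.886 and 0.730. The portal fibroblast list had a median of 0.09, −0.27 in unmarked and 0.74 in marked pairs. Mfap5, a microfibril protein of portal-type fibroblasts, had 1.18 over all pairs, 0.137 (0.0744 to 0.237) in unmarked and 3.0 (2.37 to 3.83) in marked cells. The mesothelial list had a median of −1.01 over all pairs and 6 genes at least 2-fold lower, with −0.35 in marked pairs. In unmarked pairs, chosen for few mesothelial UMIs, 3 of the 11 genes were counted, with ratios from 0.306 to 1.84 and a median of −0.68.

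Immediate-early genes, which are induced within minutes by growth factors or by tissue handling, had ratios under 1, but none of the 12 was at least 2-fold lower over all, unmarked or marked pairs. All 12 were under 1 over all and unmarked pairs and 10 in marked pairs, with a median log2 ratio of −0.53 over all pairs, −0.59 in unmarked and −0.57 in marked pairs. Fos stood at 1107 and 1692 CPM (0.655, 0.636 to 0.674, with 0.652 in unmarked and 0.665 in marked cells). Egr1 had 0.621 (0.598 to 0.644) over all pairs and Atf3 0.528 (0.495 to 0.563). Among the unmarked members above the percentile, Fos was at 868 CPM in the mitotic range, 1153 between the cuts and 1078 in the S phase range, against 1741 in the matched cells, so each range lay below the matched level. Klf2 and Klf4, flow and stress factors of the list, had ratios of 1.12 and 1.0 in marked cells, the exceptions there.

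Of 12 growth factor receptors 1 was at least 2-fold lower over all pairs, and of 15 counted ligands 3 were. In unmarked pairs 0 of 11 counted receptors and 0 of 13 counted ligands were lower, and in marked pairs 0 of 12 and 4 of 14. None was at least 2-fold higher. Of all counted genes, 3.38% were lower over all pairs, 1.3% in unmarked and 2.76% in marked pairs, and 5.26%, 4.77% and 5.5% were higher. The receptor list had a median of −0.16 and the ligand list of −0.44, with −0.29 and −0.49 in unmarked pairs. Pdgfrb, the PDGF receptor beta, had a ratio of 1.0 over all pairs and 0.807 in unmarked cells, and Pdgfra 0.842 and 0.780. Met, the receptor of hepatocyte growth factor, stood at 16.8 and 53.4 CPM (0.315, 0.253 to 0.390). In unmarked cells it had 0.423, with too few UMIs to be counted. Fgf2 stood at 26.1 and 73.5 CPM (0.355, 0.298 to 0.423) and had 0.551 in unmarked cells. Nucleolar genes of ribosome building had a median of 0.38 (0.53 in unmarked pairs), with Nop56 at 69.8 and 50.4 CPM (1.39, 1.2 to 1.6), and glycolysis genes 0.17.

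Of the 15 genes lowest over all pairs, 14 had a ratio nearer to 1 in unmarked pairs and 15 in marked pairs. The 15 were chosen as the lowest in these same data, so a move toward 1 under another matching is expected from the choice alone. The counts are therefore a description, and a cause was not tested. In unmarked pairs 10 of the 15 had under 50 UMIs, such as Angptl7 with 1 and 17, so their ratios there are loose. Pnoc, the prepronociceptin gene, stood at 2.07 and 29 CPM, Ephb1, an ephrin receptor, at 2.81 and 35.6, and Vnn1, the pantetheinase, at 7.38 and 68.1. Gpc3, a heparan sulfate glypican, stood at 45.5 and 245 CPM (0.185, 0.164 to 0.210), but had 0.930 (0.694 to 1.24) in unmarked cells and 0.269 in marked ones. Enpp6 and Slc39a8, the latter a zinc and manganese transporter, had 0.192 and 0.228 over all pairs and turned to 1.25 (0.546 to 2.92) and 1.19 (0.684 to 2.09) in unmarked cells. Lamc3, Spock2, Pappa, Angptl7, Cpe, Fam110c, Lratd1, Prg4 and Wipf3 made up the 15, with ratios from 0.172 to 0.235 over all pairs.

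**Figure D5:**
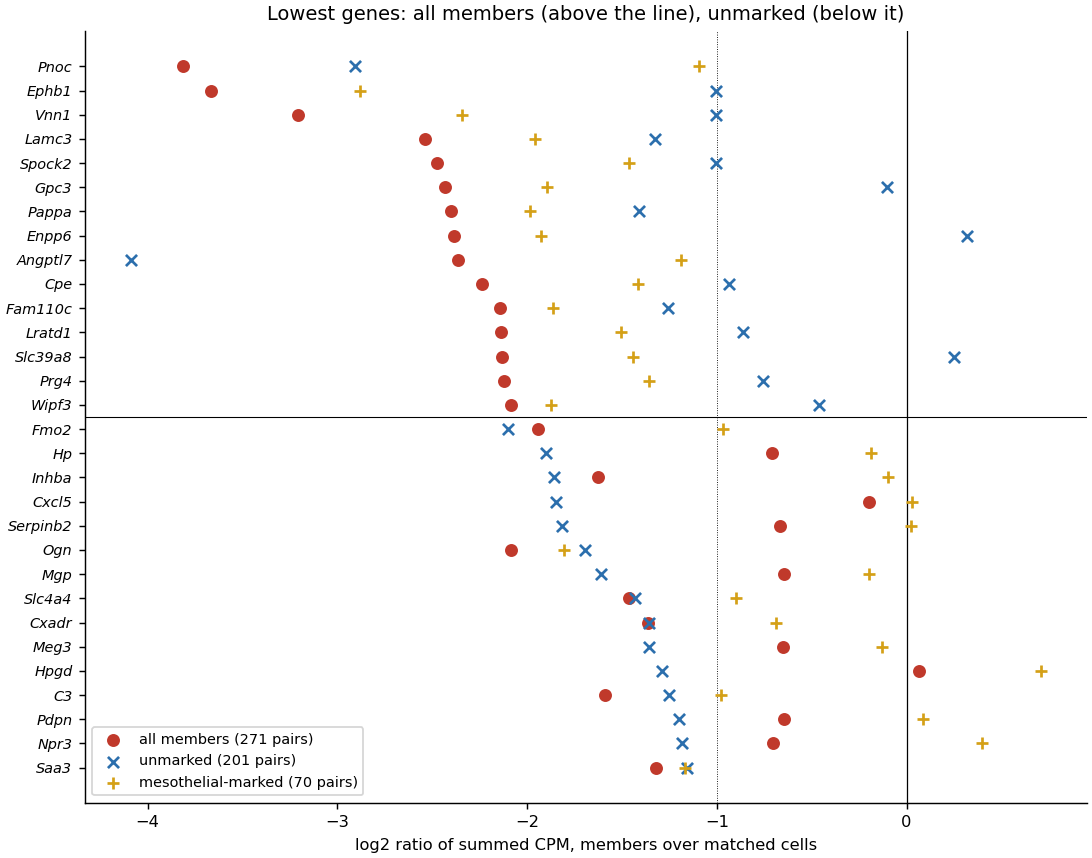
Log2 ratio of CPM, members over matched cells, for the genes lowest over all pairs (above the line) and those lowest in unmarked pairs (below it), each over all, unmarked and mesothelial-marked pairs. As ratios, Gpc3 is at 0.185 over all pairs and 0.930 in unmarked pairs, and Saa3 at 0.400, 0.448 and 0.446 over all, unmarked and marked pairs.

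With at least 50 UMIs in each kind, 4 of the 68 named genes had a ratio of at most 0.5 in both. The 68 were chosen as the highest or the lowest genes, so 4 of 68 is not a share of genes. Of all counted genes, 1.3% in unmarked and 2.76% in marked pairs were at most 0.5. The share of all genes at most 0.5 in both kinds was not counted. Saa3, the acute-phase serum amyloid A of extrahepatic cells, stood at 3202 and 7150 CPM in unmarked cells (0.448, 0.439 to 0.457) and had 0.446 (0.440 to 0.452) in marked cells. Ogn, the leucine-rich proteoglycan osteoglycin, had 0.308 (0.245 to 0.385) and 0.286 (0.224 to 0.361), and was seen in 23.9% of unmarked members and 53.2% of their matched cells. Pappa, a protease of IGF-binding proteins, had 0.377 and 0.253, and Fam110c had 0.418 and 0.275. These 4 were singled out after their values were seen.

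Others were at most 0.5 in 1 kind. C3, the central complement protein, had 0.420 (0.402 to 0.440) in unmarked and 0.507 (0.494 to 0.520) in marked cells. Hp, the acute-phase haptoglobin, stood at 158 and 589 CPM in unmarked cells (0.268, 0.246 to 0.292), although it was seen in 22.9% and 26.9% of cells, and had 0.877 in marked cells. Inhba, the activin A subunit, had 0.276 (0.212 to 0.355) and 0.936 (0.414 to 2.12), and Mgp, the matrix Gla protein, 0.328 and 0.871. Cxcl5 and Serpinb2 had 0.278 and 0.284 in unmarked cells and 1.02 in marked cells each. Fmo2, Slc4a4, Cxadr, Meg3, Hpgd, Pdpn and Npr3 completed the 15 of unmarked cells, with 0.233 to 0.440. In marked cells Cxcl13, a B cell chemokine, stood at 74.0 and 532 CPM (0.139, 0.119 to 0.162), while in unmarked cells it was higher in the members (2.96, 2.81 to 3.12). Lbp, the lipopolysaccharide-binding protein, had 0.267 (0.204 to 0.346) in marked and 0.766 (0.575 to 1.02) in unmarked cells. The difference between the kinds was not tested.

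Markers of other cell types were looked for in every member. At least 3 UMIs of the 10 endothelial genes were found in 67.2% of the members and 50.6% of the matched cells, with the list at 558 and 389 CPM. In unmarked pairs the shares were 79.6% and 71.6%, with the list at 769 and 763 CPM. The Ptprc-positive cells of the library, at a median of 5762.5 UMIs, had a share of 22.3% and stood at 504 CPM. Among unmarked members the list was highest in the S phase range, as given above. In mesothelial-marked cells the endothelial list stood at 208 and 108 CPM. The macrophage list stood at 153 and 368 CPM over all pairs, at 58.8 and 55.6 in unmarked and at 310 and 587 in marked pairs, against 10222 CPM in the Ptprc-positive cells of the library. Its share of cells with 3 UMIs was 16.6% and 35.4% over all pairs, and 10.9% and 12.4% in unmarked pairs. The cholangiocyte list stood at 254 and 381 CPM over all pairs, but at 35.0 and 31.7 in unmarked and 619 and 612 in marked pairs. The hepatocyte list stood at 76.3 and 38 CPM, and at 99.96 and 45.9 in unmarked pairs. Lymphocyte genes were at 2.36 and 2.57 CPM and neutrophil genes at 4.72 and 3.63 CPM, and Cd3d, Cd3g, Nkg7, Gzma, Ms4a1 and Csf3r had 0 UMIs in the members. Erythroid genes were at 10.2 and 514 CPM, and 3236 of the 3400 UMIs of the matched cells came from 1 cell. Scrublet, which scores simulated doublets, ranked 27 members (9.96%) and 33 matched cells (12.2%) among the highest scores of the library, against 6.16% of the gate. The part of these markers in the gene ratios was not tested, and without the highest Scrublet scores the counts of higher and lower genes moved by less than 1.5 times.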

How the data were processed

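Liver cells of 1 healthy and 1 CCl4-injured library were measured by 10x droplet RNA sequencing. The authors deposited, per library, a matrix of raw UMI counts per gene and barcode, without normalization. Per the file headers the healthy matrix came from Cell Ranger 3.1.0 (31053 genes) and the CCl4 matrix from 6.0.1 (32285 genes). The labels list both a human and a mouse genome build, and the gene identifiers in the files are those of mouse. Total depth was 51122846 UMIs in the healthy and 97611831 UMIs in the CCl4 library, no barcode had under 500 UMIs, and 10 barcodes occurred in both libraries.

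The members and gene lists were chosen with earlier results of these data known. Members were paired with cells without gate UMIs, without reuse, on the nearest log10 total of UMIs, and 6 of 271 pairs differed by over 0.05. UMIs were summed per set and divided by the total as CPM, and ratios were given with exact conditional binomial intervals, levels with exact Poisson intervals and shares with Clopper-Pearson intervals, all at 95%. Genes with at least 50 UMIs over both sets were counted, at least 2-fold was called higher and a ratio of at most 0.5 lower. With 0 UMIs in a set a floor of 3 UMIs was used, and list medians hold such genes at that floor. The lower end of the 95% interval of such a gene can lie under the ratio so obtained. Each group had 1 library, so nothing was tested and no p-value is given. Thinning drew UMIs without replacement, and shares after thinning are expected values. Named genes were the 15 highest and the 15 lowest with at least 200 UMIs, without gate, list, mitochondrial, ribosomal and unnamed-model genes, for all pairs and within each kind, beside any gene of the lists.

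Doublets were scored with Scrublet in scanpy (seed 1, highest scores up to 0.8% per 1000 cells, 487 of 7805 cells) and kept in the main sets. Promoters came from a RefSeq table of GRCm38.p6, matched by symbol, and lists with under 80% of genes matched were not read on their own. The DNA replication list (78.6% matched) and the mitotic kinases and cyclins (68.4%) were under that limit. They were read only as parts of the pooled S phase and mitotic lists (82.1% and 81.1%). The scripts were tested on simulated data. Alternatives were no matching, other UMI minima, other gate thresholds, equal weight per cell, TMM scaling, leaving out doublets and splitting by mesothelial markers. Software was python 3.11.15 with numpy 2.4.6, scipy 1.17.1, pandas 2.3.3, scanpy 1.11.5, anndata 0.12.19, matplotlib 3.10.9 for figures, and edgeR 4.0.16 under R 4.3.3 for scaling factors only.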

Additional observations from a re-analysis of the deposited data

Results flagged for a closer look

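Cells with at least 3 UMIs of Mki67, Top2a and Cdk1 were also found outside the comparisons. In the CCl4 library 6 Ptprc-positive cells passed both the collagen and the cycle threshold, with 133 to 650 collagen UMIs and a median of 32555 UMIs. At least 3 UMIs of the macrophage genes were present in 6 of them, of endothelial genes in 5 and of lymphocyte genes in 4. In the healthy library 16 cells passed the cycle threshold, all outside the collagen gate with 0 to 7 collagen UMIs, and their median depth was 28864.5 UMIs. Of these, 14 had at least 3 UMIs of cholangiocyte genes, 13 of endothelial genes, 7 had at least 50 UMIs of hepatocyte genes and 2 were Ptprc-positive.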

How the results depend on the processing

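The medians of the DNA replication, nucleotide, histone and mitotic lists stayed above 0 in every alternative run, whereas counts of genes and the lists of matrix, contractile and subtype genes depended on the choices. The number of genes counted also changed with the setting, from 11069 in the main run. Without matching, 735 of 13493 genes were lower, and the medians were −0.086 (fibrillar matrix), −0.13 (contractile), −0.41 (stellate) and −0.46 (mesothelial). With every gene over 3 UMIs counted, 1183 of 15060 genes were higher and 1226 lower, with the contractile median at 0.26. With a minimum of 200 UMIs, 287 of 7321 genes were higher and 147 lower, with histones at 2.81. With every cell weighing the same, the mesothelial median was −1.24. Without the highest Scrublet scores the contractile and stellate medians were 0.20 and 0.25.

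With at least 5 gate UMIs, medians were 3.54 (histones), 0.16 (contractile) and −0.66 (immediate-early), the share of the gate was 3.53%, and 56.1% and 17.6% of members lay under 1/3 and over 2/3 of S share. Thinned to 2000 and 5000 UMIs the share of the gate was 1.34% and 2.64%. Without mesothelial-marked cells 130 of 9998 genes were lower, and medians were −0.29 (fibrillar matrix), −0.13 (contractile), −0.13 (stellate) and −0.68 (mesothelial). Enpp6 and Slc39a8 turned to log2 ratios of 0.32 and 0.25. The Myl7 log2 ratio turned from 1.65 to −0.0017, a value that rests on 1 UMI in each set.

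The alternatives that follow were chosen after seeing the data. With at least 12 gate UMIs the share was 2.23% and medians were 3.88 (histones), 0.067 (contractile), −1.49 (mesothelial), −0.77 (growth ligands) and −0.74 (immediate-early). In mesothelial-marked cells alone 231 of 8382 genes were lower. Medians there were 1.2 (nucleotide supply), 0.26 (fibrillar matrix), −0.13 (contractile), −0.49 (stellate) and −0.35 (mesothelial). The mesothelial median was −1.36 without pairs over 0.05 apart, and also −1.36 with only members over the matched 99th percentile, which gave histones 3.54, immediate-early −0.66 and 56.1% under 1/3. In those 2 settings the Myl7 log2 ratio turned to −0.13 and −0.033. The cause was not tested for any of these.

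Of 254 alternatives of the summary values 210 stayed within the spread allowed (1.5 times for counts) and 44 moved, and of 1148 of 82 genes (the 68 named by rule and 14 of the lists, each over all pairs) 855 stayed within it, 288 moved and 5 reversed. No paired analysis was possible because each group has 1 library. Leaving out a replicate was not possible for the same reason. Depth limits the ratios of genes nearly absent from matched cells, whose intervals span an order of magnitude or more.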
